A study of Homo sapiens with 6 samples.

Results

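The mRNAs of 10 enzymes of glycolysis and lactate formation were followed through a pulldown with the FERRY complex. They are GPI, ALDOA, TPI1, GAPDH, PGK1, PGAM1, ENO1, PKM, LDHA and LDHB, listed by gene symbol for their place in the pathway. The list was drawn up with earlier results of these data known, so it was not blind to them. The deposited count table has 60676 gene rows, of which 15546 had enough counts to be tested, and all 10 enzyme mRNAs were found in it and tested. FERRY is a protein complex that binds the active form of RAB5, the small GTPase of early endosomes, and also binds mRNA. The series screened for RNAs that associate with it.

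Each library holds the RNA recovered on glutathione resin that carried a bait protein and had been incubated for 1.5 h with fresh lysate. The lysate was made from suspension cultures of HEK 293, a cell line derived from human embryonic kidney. One group of 3 libraries had glutathione S-transferase (GST) alone as bait and measures what sticks to resin and tag, and the other group of 3 had the GST-Ferry complex. Lysate, resin, washes, removal of ribosomal RNA and strand-specific library preparation are given alike for both groups in the labels. No RNA of the input lysate was analysed here, so each value is a share of what was recovered on a bait, and a level says nothing of the amount in the cell.

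Glycolysis breaks glucose down to pyruvate in the cytosol and makes ATP and NADH on the way. Its first enzymes prepare and split the sugar, the later ones recover ATP, and lactate dehydrogenase turns pyruvate into lactate and so restores the NAD that GAPDH needs. These enzymes are soluble, very abundant proteins made on free ribosomes from abundant mRNAs in most dividing cells.

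The libraries held 7390346 to 10466520 counts with GST and 2454538 to 6532665 with GST-Ferry. Levels are normalised read counts (CPM), in which each library's counts are set against its total after scaling for composition. A level of 3 counts, taken as the floor of detection, lay between 0.273 and 1.30 CPM. The HEK 293 marker genes LIN28B, NEFL, NEFM, PAX2 and EYA1 had enough counts to be tested. Of 6 markers of other cell types, PTPRC, HBB, ALB and PECAM1 had too few counts to be tested, and HBB had 0 in every library. The other 2, COL3A1 and INS, had enough counts to be tested. As a check of the labels, the mRNAs of 3 of the 5 bait subunits (PPP1R21, C12orf4 and TBCK) passed the test for higher levels with GST-Ferry. CRYZL1 and GATD1 did not, with log2 fold changes of -0.50 and 0.12 (adjusted p = 0.248 and 0.808, edgeR with Benjamini-Hochberg adjustment). The 5 subunit genes took 0.0359% to 0.0504% of the counts with GST and 0.249%, 2.72% and 5.35% in GST-Ferry 1, 2 and 3.

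The 10 enzyme mRNAs took a larger share of the RNA recovered with GST-Ferry than with GST, although single genes mostly missed the threshold. Together they held 0.420%, 0.401% and 0.384% of the counts in GST 1, 2 and 3, and 0.600%, 0.736% and 0.683% in GST-Ferry 1, 2 and 3. The shares of the groups did not overlap (0.402% ± 0.0183 against 0.673% ± 0.0681, mean ± SD, n = 3 each). All 10 had a log2 fold change of GST-Ferry over GST above 0, where 47.8% of all tested genes did. Their median was 0.81, with a range from 0.30 to 1.11, against a median of -0.03 over all tested genes, and 8 of the 10 lay above 0.5, where 13.8% of all tested genes did.

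Single genes were tested with the quasi-likelihood method of edgeR, and p-values were Benjamini-Hochberg adjusted over all 15546 genes with a threshold of 0.05. Of the 10, TPI1 passed. The same test called 0.592% of all genes higher and 0.0322% lower. For 7 of the 10, namely GPI, TPI1, GAPDH, PGAM1, ENO1, PKM and LDHA, the lowest GST-Ferry library lay above the highest GST library, a pattern found in 14.9% of all tested genes. ALDOA, PGK1 and LDHB overlapped between the baits. An unadjusted p under 0.05 was reached by 8 of the 10 and, on the higher side, by 11.3% of all genes. In 9 of the 10 the lowest of the GST-Ferry libraries was GST-Ferry 1, and in ALDOA it was GST-Ferry 2. The labels do not say that libraries of a bait came from separate cultures, so every p refers to the spread among these libraries, and part of that spread may be technical.

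**Figure D1:**
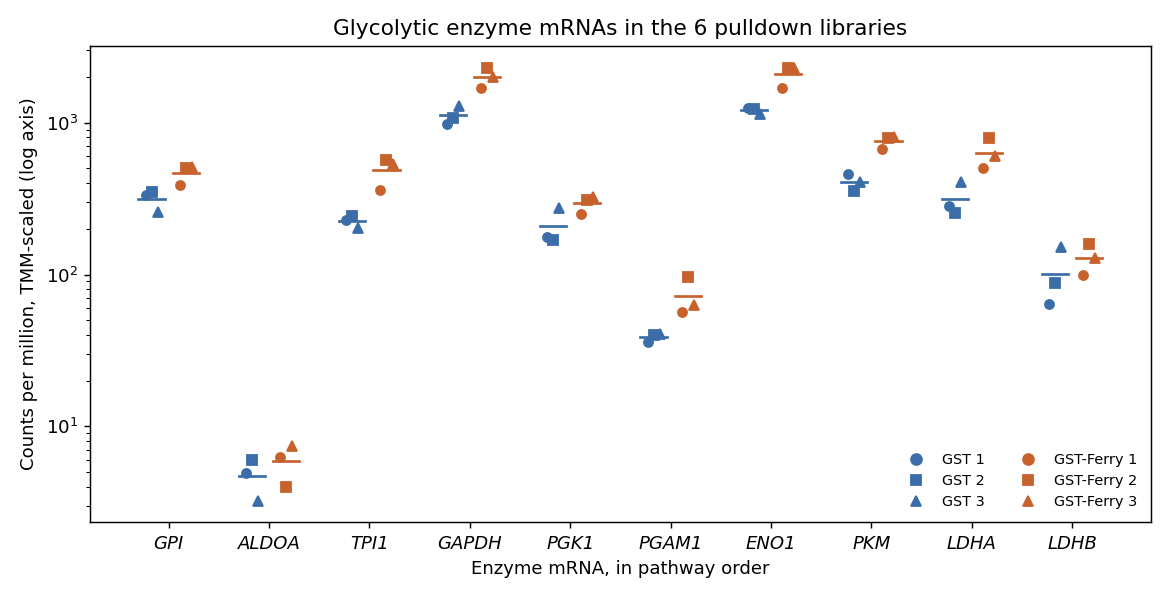
Level of each enzyme mRNA in the 6 libraries, in CPM scaled by TMM on a log axis, with GST in blue and GST-Ferry in orange, symbols for replicates 1 to 3 and a line at each group mean (n = 3). The groups were apart in 7 of the 10 enzymes and overlapped in ALDOA, PGK1 and LDHB.

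The members differ in base composition, which is set against the fold changes further on, so the first 60 coding bases are shown for 4 of them, 5′ to 3′, from the principal transcripts of GENCODE 29 on GRCh38. Capitals mark G and C. Of the 60 bases, 35 are G or C in TPI1 and in PKM, 25 in LDHA and 27 in LDHB.
TPI1: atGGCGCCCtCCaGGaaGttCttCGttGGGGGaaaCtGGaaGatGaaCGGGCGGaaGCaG
PKM: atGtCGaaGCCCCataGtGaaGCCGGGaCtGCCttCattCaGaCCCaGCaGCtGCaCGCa
LDHA: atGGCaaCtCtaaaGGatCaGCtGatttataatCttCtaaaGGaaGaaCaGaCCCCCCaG
LDHB: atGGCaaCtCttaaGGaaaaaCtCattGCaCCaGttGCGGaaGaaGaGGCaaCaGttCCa
The contrast is wider at the third codon position than over all coding bases. There G and C make up 66.3% in TPI1, 64.6% in PKM, 46.7% in LDHA and 42.5% in LDHB.

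The first steps of the pathway held both the member with the largest fold change, TPI1, and the one with the smallest, ALDOA. GPI converts glucose 6-phosphate to fructose 6-phosphate and lies on chromosome 19 (34359480 to 34402413, plus strand of GRCh38, as for all positions here). It had 335, 348 and 260 CPM in GST 1, 2 and 3 and 390, 500 and 509 CPM in GST-Ferry 1, 2 and 3. The groups were apart, with GST-Ferry 1 close to GST 2. Its log2 fold change was 0.57 ± 0.21 (SE; 95% interval 0.12 to 1.01), and the adjusted p was 0.169 (edgeR, Benjamini-Hochberg).

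TPI1, triosephosphate isomerase, interconverts the pair of triose phosphates that the splitting of the sugar leaves, and lies on chromosome 12 (6867119 to 6870948, plus strand). It rose from 230, 244 and 202 CPM with GST to 361, 564 and 539 CPM with GST-Ferry. All 3 GST-Ferry libraries lay well above the GST libraries, and GST-Ferry 1 was the lowest of them. The fold change was 2.16, or 1.11 ± 0.22 on the log2 scale (95% interval 0.64 to 1.58), and the adjusted p was 0.0463 (edgeR, Benjamini-Hochberg). This call was close to the threshold and was lost without GST 1 (adjusted p = 0.0536), GST 2 (0.108), GST-Ferry 2 (0.425) or GST-Ferry 3 (0.411) in the same edgeR test with Benjamini-Hochberg adjustment. Over all alternatives TPI1 passed in 10 of 18, with log2 fold changes from 0.96 to 1.30.

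ALDOA, the aldolase that splits fructose 1,6-bisphosphate, lies on chromosome 16 (30064164 to 30070457, plus strand). Its row held only 51, 66 and 22 counts with GST and 43, 10 and 17 with GST-Ferry. That is 4.96, 6.01 and 3.24 CPM against 6.29, 3.98 and 7.39 CPM, with overlapping groups (log2 fold change 0.30 ± 0.37, 95% interval -0.49 to 1.09, adjusted p = 0.68, edgeR with Benjamini-Hochberg adjustment). In GENCODE 29, exons of another gene on the same strand, AC093512.2, cover 82.6% of the bases of the ALDOA transcript. The row of AC093512.2 itself held 39, 69 and 16 counts with GST and 23, 3 and 11 with GST-Ferry. The treatment of reads that fall in both genes is not given in the sources used here, and the ALDOA level is therefore uncertain.

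The 5 enzymes of the second stage, which turn triose phosphate into pyruvate, ran close together, with log2 fold changes from 0.51 to 0.90 and 0 of 5 past the threshold. GAPDH, which oxidises glyceraldehyde 3-phosphate and lies on chromosome 12 (6533927 to 6538374, plus strand), had 985, 1077 and 1298 CPM with GST and 1693, 2288 and 2005 CPM with GST-Ferry. The groups were apart, and GST 3 was the highest of the GST libraries. Its log2 fold change was 0.83 ± 0.22 (95% interval 0.36 to 1.31, adjusted p = 0.087, edgeR with Benjamini-Hochberg adjustment).

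PGK1 makes the first ATP of this stage and lies on chromosome X (77910739 to 78129296, plus strand). It had 178, 170 and 276 CPM with GST and 251, 311 and 325 CPM with GST-Ferry. GST 3 lay above GST-Ferry 1, so the groups overlapped, and the log2 fold change was 0.51 ± 0.23 (95% interval 0.02 to 1.00, adjusted p = 0.243, edgeR with Benjamini-Hochberg adjustment). Without GST 3 the same edgeR test with Benjamini-Hochberg adjustment gave 0.74 (adjusted p = 0.0213). It gave 0.39 without GST 1 (0.407) and 0.36 without GST 2 (0.484).

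PGAM1, which moves the phosphate group of 3-phosphoglycerate, lies on chromosome 10 (97426160 to 97433441, plus strand). It had 35.7, 40.1 and 40.5 CPM with GST, a narrow range, and 56.3, 96.7 and 63.1 CPM with GST-Ferry, where GST-Ferry 2 stood above the other libraries. The log2 fold change was 0.89 ± 0.23 (95% interval 0.39 to 1.38, adjusted p = 0.0826, edgeR with Benjamini-Hochberg adjustment).

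PGAM1 is also the member whose copies held the largest share of the parent's counts. Its 13 pseudogene rows held 161 counts, 8.68% of the count of PGAM1 itself, while the 65 rows of GAPDH copies held 419 counts, or 0.795% of GAPDH. The PGAM1 copies with at least 1% of its count were PGAM1P11 (2.48%), PGAM1P6 (2.32%), PGAM1P7 (2.05%) and PGAM1P8 (1.08%). In that order they matched the PGAM1 coding sequence at 79.2%, 89.5%, 87.4% and 97.6% of aligned bases. For PGAM1P8 only 450 bases aligned. PGAM4, an intact copy without introns that lies inside the span of PGK1 on the opposite strand, matches 749 of the 762 coding bases of PGAM1 (98.3%). Its row held 0 counts in each GST library and 0, 1 and 1 in GST-Ferry 1, 2 and 3. The stretch of 60 bases where PGAM1 and PGAM4 differ most, coding bases 28 to 87, is shown 5′ to 3′. It shows how few bases separate this pair. Capitals mark the bases that differ.
PGAM1: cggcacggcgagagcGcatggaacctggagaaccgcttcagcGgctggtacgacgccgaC
PGAM4: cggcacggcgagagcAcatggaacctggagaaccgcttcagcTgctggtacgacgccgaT
Of these 60 bases 57 are identical. Over all members the 104 pseudogene rows held 963 counts, or 0.519% of the members' own, and adding them to the parent genes left the median log2 fold change at 0.81 and TPI1 as the member called (adjusted p = 0.0477, edgeR with Benjamini-Hochberg adjustment). ALDOAP1, with 3 counts, was the other copy at 1% or more of its parent (1.44%).

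ENO1, the enolase that removes water from 2-phosphoglycerate, lies on chromosome 1 (8861000 to 8879250, minus strand) and had the highest mean level of the 10 with either bait, though GAPDH was above it in GST 3. It had 1260, 1239 and 1134 CPM with GST and 1704, 2298 and 2309 CPM with GST-Ferry. The GST libraries were tight, and GST-Ferry 1 lay between them and the other GST-Ferry libraries. The log2 fold change was 0.80 ± 0.21 (95% interval 0.33 to 1.26, adjusted p = 0.0906, edgeR with Benjamini-Hochberg adjustment). PKM, the pyruvate kinase gene, lies on chromosome 15 (72199029 to 72231822, minus strand) and had 461, 356 and 405 CPM with GST and 676, 800 and 802 CPM with GST-Ferry. Its groups were far apart relative to their spread, at 0.90 ± 0.20 on the log2 scale (95% interval 0.47 to 1.33, adjusted p = 0.0589, edgeR with Benjamini-Hochberg adjustment).

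Lactate dehydrogenase is built from the products of LDHA and LDHB, which had log2 fold changes of 1.01 and 0.34. LDHA encodes the subunit that dominates in muscle and in rapidly dividing cells, and lies on chromosome 11 (18394388 to 18408425, plus strand). It had 282, 254 and 408 CPM with GST and 502, 797 and 606 CPM with GST-Ferry. The groups were apart although GST 3 was high, and the fold change was 2.02, or 1.01 ± 0.24 on the log2 scale (95% interval 0.49 to 1.54, adjusted p = 0.0705, edgeR with Benjamini-Hochberg adjustment). LDHB encodes the subunit that dominates in heart, and lies on chromosome 12 (21635342 to 21757857, minus strand). It had 64.3, 87.7 and 152.6 CPM with GST and 99, 158 and 129 CPM with GST-Ferry. GST 3 was among the highest libraries, the groups overlapped, and the log2 fold change was 0.34 ± 0.29 (95% interval -0.29 to 0.97, adjusted p = 0.547, edgeR with Benjamini-Hochberg adjustment). Single libraries moved this value widely. It passed the same edgeR test with Benjamini-Hochberg adjustment without GST 3 (0.72, adjusted p = 0.0392), and was 0.08 without GST 1 (0.901), 0.22 without GST 2 (0.743) and 0.12 without GST-Ferry 2 (0.907).

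The ratio of LDHA to LDHB counts within a library does not depend on scaling. It was 4.38, 2.90 and 2.67 in GST 1, 2 and 3 and 5.06, 5.03 and 4.70 in GST-Ferry 1, 2 and 3, so the groups did not overlap. The mean log2 ratio was higher by 0.61 with GST-Ferry. An exact two-sided permutation test over the libraries gave p = 0.1, the smallest that 3 against 3 allow, and 0.629 after Benjamini-Hochberg adjustment over the 11 ratios examined, so the difference did not pass. Exons of AC010197.2 on the same strand cover 76.5% of the LDHB transcript. The row of that gene held 0 or 1 count per library, and the same uncertainty holds for LDHB.

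The coding sequences of LDHA and LDHB differ throughout their length. They match at 682 of 996 aligned bases (68.5%), with no stretch of identity longer than 17 bases. Their most similar stretch of 60 bases, coding bases 571 to 630 of LDHA and 574 to 633 of LDHB, is shown 5′ to 3′ with the differing bases in capitals.
LDHA: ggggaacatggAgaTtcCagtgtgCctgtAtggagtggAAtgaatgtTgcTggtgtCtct
LDHB: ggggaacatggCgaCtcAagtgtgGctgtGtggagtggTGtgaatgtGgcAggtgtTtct
Even here only 50 of the 60 bases are identical, and the 2 coding sequences share no run of 50 bases. The untranslated regions were not compared.

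The other 10 ratios set each enzyme against the sum of all members in the same library, and in each of them the groups overlapped. The share of TPI1 was 6.0%, 6.38% and 4.84% of the members' counts with GST and 6.30%, 7.22% and 7.39% with GST-Ferry, a difference of 0.29 in mean log2 share (exact two-sided permutation p = 0.2). ENO1 and GAPDH together held 58.2% to 60.6% of the members' counts in every library. Their mean log2 shares differed between baits by -0.02 and 0.03 (exact two-sided permutation p = 0.8 each). The shares of PGK1 and GPI differed by -0.27 (p = 0.2) and -0.23 (p = 0.4) in the same exact permutation test.

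**Figure D2:**
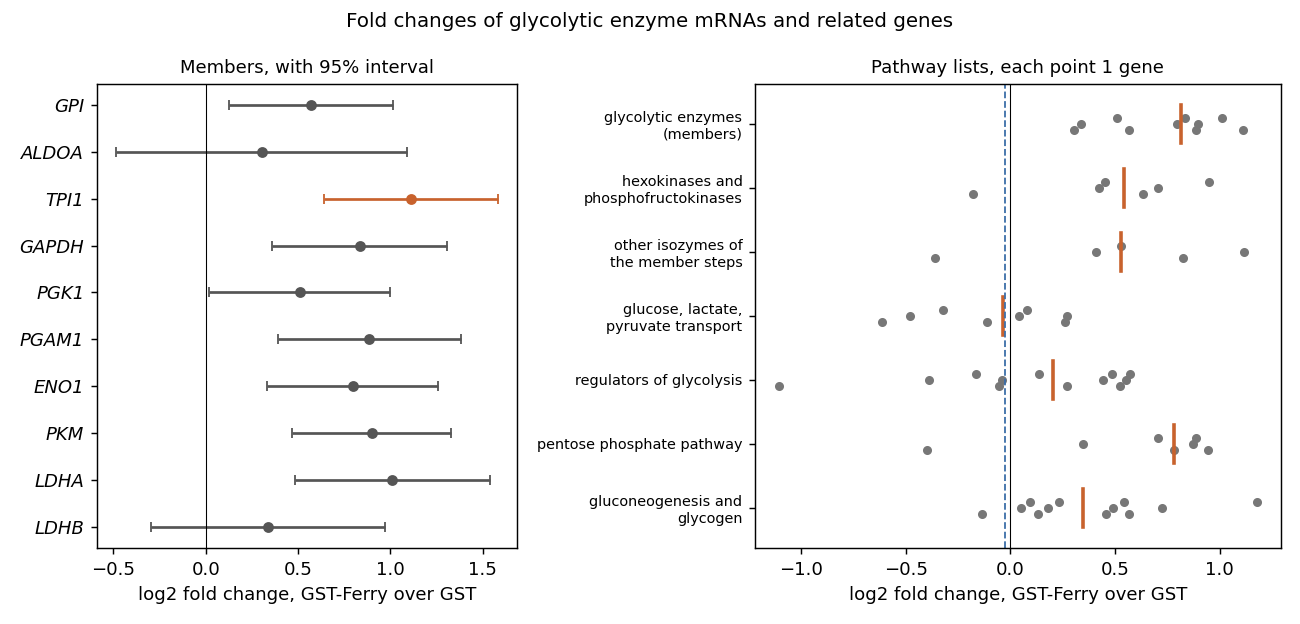
Left, log2 fold change of GST-Ferry over GST for each enzyme with its 95% interval (n = 3 against 3), TPI1 in orange as the gene past the threshold. Right, log2 fold changes of the tested genes of each pathway list (grey points) with the list's median (orange) and the median of all tested genes (dashed, -0.03); the members' median is 0.81 and that of the transport genes -0.03.

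Levels of different enzymes can be compared per length of transcript only. With GST the order was ENO1 (680 ± 37.8 CPM per kb, mean ± SD, n = 3), GAPDH (597 ± 85.6), TPI1 (183 ± 17.3), GPI (154 ± 23.3), PKM (150 ± 19.4), LDHA (130 ± 34.0), LDHB (77.9 ± 35.1), PGK1 (42.5 ± 12.1), PGAM1 (21.2 ± 1.46) and ALDOA (2.96 ± 0.873). Neighbours in this order whose libraries did not overlap were GAPDH and TPI1, PGK1 and PGAM1, and PGAM1 and ALDOA. The other 6 neighbouring pairs overlapped. The places of ALDOA and LDHB are uncertain, since exons of another gene on the same strand cover 82.6% and 76.5% of their transcripts. With GST-Ferry ENO1 (1181 ± 194 CPM per kb) and GAPDH (1064 ± 159) again led, and TPI1 (396 ± 89.8) followed. PKM (279 ± 26.6) and LDHA (263 ± 62.0) then stood above GPI (229 ± 32.4) in the mean, with overlapping libraries. Among all rows of the table the GST mean of ENO1 in CPM ranked 33 and that of GAPDH 41.

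The steps around the members were read from lists of related genes, in which 0 genes passed the threshold. The committed and regulated steps at the head of the pathway are run by hexokinases and phosphofructokinases. Of 9 such genes 6 were tested, 5 had a fold change above 0, and the median log2 fold change was 0.54. The most abundant, the phosphofructokinase PFKL, had 128 ± 46.0 CPM with GST and 199 ± 35.1 with GST-Ferry (log2 fold change 0.63 ± 0.27, adjusted p = 0.225, edgeR with Benjamini-Hochberg adjustment). The hexokinase HK1, named here after its values were seen, came closest to the threshold in this list, with 83.7 ± 9.42 and 162 ± 33.4 CPM (0.95 ± 0.21, adjusted p = 0.0589 in the same edgeR test with Benjamini-Hochberg adjustment).

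Other isozymes of the members' steps mostly had too few counts to be tested. Of 15 genes 5 were tested, 4 had a fold change above 0, and the median was 0.53. The most abundant was the neuronal enolase ENO2, at 77.7 ± 9.92 CPM with GST and 138 ± 29.7 with GST-Ferry. Its log2 fold change of 0.82 ± 0.22 (adjusted p = 0.087, edgeR with Benjamini-Hochberg adjustment) was within 1 SE of the 0.80 of ENO1. The aldolase ALDOC, named here after its values were seen, had 13.6 ± 1.31 CPM with GST and 30.1 ± 9.51 with GST-Ferry, a log2 fold change of 1.12 ± 0.27 (adjusted p = 0.0701 in the same edgeR test with Benjamini-Hochberg adjustment).

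The pentose phosphate pathway, which branches off glucose 6-phosphate and supplies NADPH and ribose, came nearest to the members. All 7 of its genes were tested, 6 had a fold change above 0, and the median log2 fold change was 0.78. Its most abundant mRNA was that of the transketolase TKT, with 218 ± 43.1 CPM with GST and 403 ± 83.4 with GST-Ferry (0.89 ± 0.23, adjusted p = 0.0799, edgeR with Benjamini-Hochberg adjustment). For gluconeogenesis and glycogen 12 of 16 genes were tested, 11 had a fold change above 0, and the median was 0.34. There the glycogen phosphorylase PYGL, the most abundant, had 179 ± 5.89 and 266 ± 69.2 CPM (0.57 ± 0.22, adjusted p = 0.185, edgeR with Benjamini-Hochberg adjustment).

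Membrane transporters of glucose, lactate and pyruvate and their partners had the lowest median, -0.03, that of all tested genes. Of 11 genes 8 were tested, 4 had a fold change above 0 and 0 of them lay above 0.5. The most abundant was the lactate transporter SLC16A1, at 266 ± 109 CPM with GST and 190 ± 17.5 with GST-Ferry (-0.48 ± 0.26, adjusted p = 0.328, edgeR with Benjamini-Hochberg adjustment). GST 3 alone stood high, at 392 CPM against 201 and 205 in GST 1 and 2. GST-Ferry 1, 2 and 3 had 211, 180 and 181 CPM. Of 13 regulators of glycolysis 12 were tested, 7 had a fold change above 0, and the median was 0.20. The most abundant, TXNIP, which limits glucose uptake, had 426 ± 227 and 382 ± 199 CPM, a spread within each bait far wider than the difference between them (adjusted p = 0.869, edgeR with Benjamini-Hochberg adjustment). Differences between these lists and the members were not tested.

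Base composition and length moved with the fold change across the whole table. Over 12859 protein-coding genes tested, the Spearman correlation of the log2 fold change with the GC content of the transcript was 0.59 and with its length -0.25, while with the mean level it was 0.04. These are correlations across genes, which share the 6 libraries and are not independent replicates. The enzyme mRNAs are shorter than most (median 1852.5 bases against 3160) and richer in G and C (median 55.1% against 49.0%). The median log2 fold change was -0.19 for genes with 40% to 45% GC, where PGK1, LDHA and LDHB lie. It was 0.15 from 50% to 55%, where PGAM1 and ENO1 lie, and 0.29 from 55% to 60%, where GPI, TPI1, GAPDH and PKM lie.

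Among the members themselves the fold change did not follow GC content (Spearman 0.01 and Pearson 0.14 over the 10). LDHA has 44.0% GC, and of 2122 genes within 2 percentage points of it, whose median was -0.14, 99.7% had a lower fold change. For TPI1, with 55.9%, the like figure was 98.8% of 1588 genes with a median of 0.25. PGK1 lay above 96.4% and LDHB above 91.4% of their neighbours in GC content, PGAM1 above 97.2%, ENO1 above 94.2%, PKM above 93.7%, GAPDH above 91.1% and GPI above 79.5%, and ALDOA above 47.1%. Of the 10, 9 exceeded the median of genes of like GC content. These neighbours were matched on GC content alone, not on length or level, and the part of composition was not tested.

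**Figure D3:**
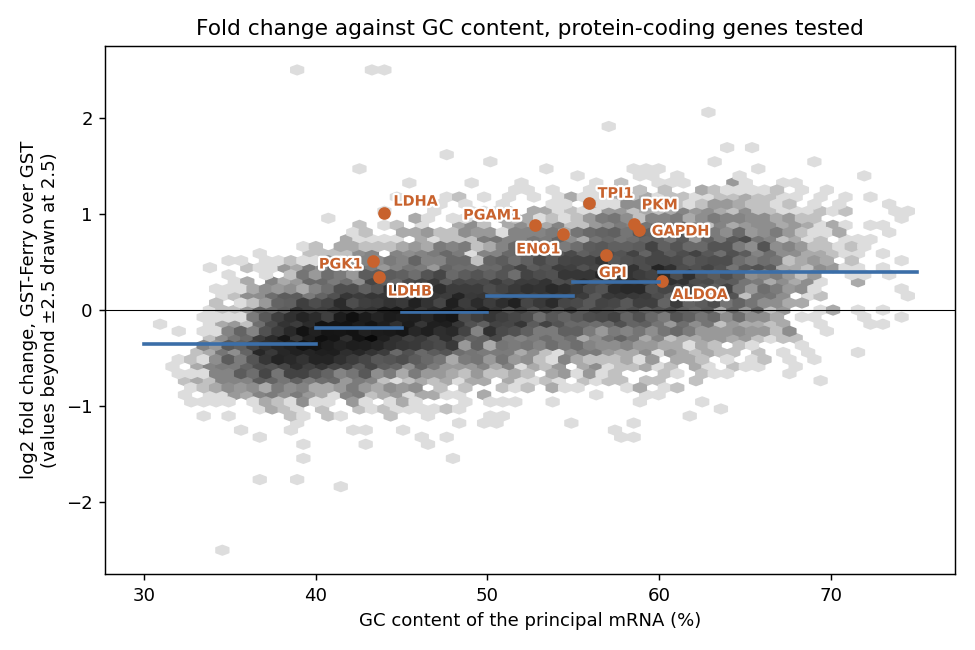
Log2 fold change against the GC content of the principal transcript, in percent, for 12859 tested protein-coding genes (grey, darker where more genes lie) with the 10 enzymes in orange and the median of each GC bin as a blue line (the outer bins, under 40% and over 60%, are drawn over a fixed width). The bin medians go from -0.35 to 0.39, and every enzyme except ALDOA lies above the line of its bin.

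The GST libraries themselves differed by composition. The deviation of a gene from its GST mean correlated with GC content across genes at 0.61 in GST 1, 0.55 in GST 2 and -0.74 in GST 3 (Spearman). The members showed the same split, at 0.66, 0.59 and -0.73. In GST 3 the members with the least G and C stood high, LDHB by 0.68, PGK1 by 0.44 and LDHA by 0.41 on the log2 scale, and ALDOA (-0.47) and GPI (-0.26) stood low. GAPDH, with 58.8% GC, went against this split and stood high by 0.22. The correlation over the members was 0.36, -0.12 and 0.22 in GST-Ferry 1, 2 and 3, where that over all genes was 0.56, 0.42 and 0.61.

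**Figure D4:**
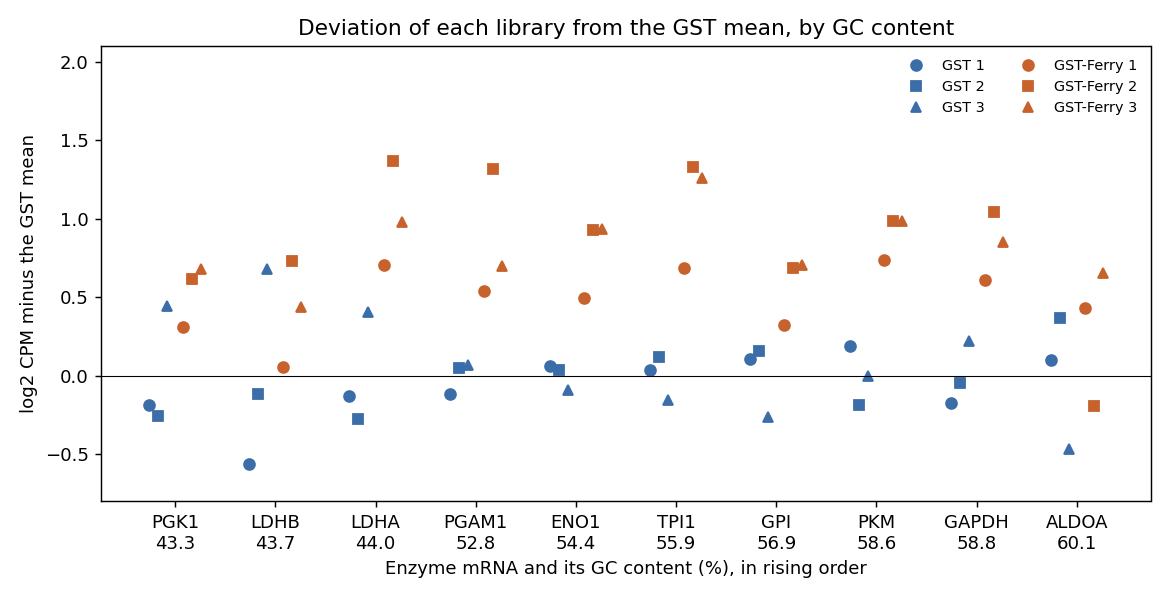
Log2 CPM of each enzyme mRNA minus its mean over the GST libraries, for each of the 6 libraries, with the enzymes ordered by GC content in percent. GST 3 (blue triangles) stands above the other GST libraries in PGK1, LDHB and LDHA, on the left, and below them in ENO1, TPI1, GPI and ALDOA, but is also the highest GST library in GAPDH (0.22).

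With per-library offsets for length and GC content the members' median log2 fold change was 0.63, and all 10 remained above 0. In that fit LDHA (1.18, adjusted p = 0.025) and TPI1 (0.96, adjusted p = 0.0303) passed the edgeR test with Benjamini-Hochberg adjustment, and GAPDH had 0.51 (adjusted p = 0.309). Without GST 3 the same edgeR test called 7 members (TPI1, GAPDH, PGK1, PGAM1, PKM, LDHA and LDHB), with a median of 0.80. Over all 15765 genes tested that fit called 701 higher and 558 lower, against 92 and 5 of 15546 with all 6 libraries. Without any other single library the same test called 0 or 1 member. The nuclear RNA MALAT1 also differed between the baits, with 10838 ± 154 CPM with GST and 7112 ± 672 with GST-Ferry, while mitochondrially encoded RNAs took 0.744% ± 0.189 and 0.746% ± 0.277 of counts. The part of depth, composition or nuclear RNA in the enzymes' levels was not tested.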

How the data were processed

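RNA from 6 GST pulldowns was sequenced, 3 for each bait. The authors deposited raw read counts per Ensembl gene. The submitters' processing notes name STAR 2.5.2b, bcl2fastq 2.19.1 and the build GRCh38.p13. The counting program, annotation release, strand setting and treatment of reads with several matches are not given in the sources used here. Per the file headers, columns are named control or sample with a number. The control columns were read as the GST libraries and the sample columns as the GST-Ferry libraries with the same number, which is an assumption.

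Genes were filtered with filterByExpr (minimum count 10, minimum total 15), scaled by TMM, and tested by quasi-likelihood (edgeR 4.0.16, limma 3.58.1, R 4.3.3), two-sided, with Benjamini-Hochberg adjustment over all genes tested and a threshold of 0.05. The tested genes held 99.5% to 99.7% of each library's counts. The floor of 3 counts covers counting error only. The SE and 95% intervals of fold changes come from the fit, and each SD is the spread among the libraries of a bait. The procedure was tested on simulated data. Libraries of the same bait were no duplicates, since their counts differed with a chi-square of 4.43 to 50.3 per degree of freedom.

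Transcript length, GC content, overlaps and sequences came from the principal transcript of each gene in GENCODE 29, with coding sequences aligned in Biopython 1.88. Log2 CPM used a prior count of 2, and ratios within a library a pseudocount of 0.5. The members and lists were chosen with earlier results of these data known. All members are named, and of each other list the called genes or else the one with the highest mean CPM. Pseudogene copies with at least 1% of their parent's counts are also named, and the 5 genes most like the members. Alternatives were RLE size factors, library sizes alone, no filter, limma-voom, DESeq2 1.42.0, a threshold of 0.01, a block for the replicate number, thinning to equal depth, removal of the bait subunit genes, addition of pseudogene counts, offsets for length and GC content, and leaving out libraries. Figures were drawn with matplotlib 3.10.9.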

Additional observations from a re-analysis of the deposited data

How the results depend on the processing

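All 10 members kept a log2 fold change above 0 in each of 18 alternatives, but the calls did not hold. Genes called higher and lower numbered 92 and 5 in the reported fit (94.8% higher), with 1 member called. RLE size factors gave 11 and 0, library sizes alone 7 and 0, limma-voom 14 and 0, and a threshold of 0.01 gave 0 and 0, each with 0 members. Without a filter they were 421 and 323 of 32648 genes (56.6% of calls higher) with 6 members. With DESeq2 they were 505 and 178 of 32648 genes, also with 6 members. With offsets for length and GC content they were 273 and 53 of 15437 genes (83.7% of calls higher), with 2 members and a median of 0.63. At equal depth they were 127 and 11 of 12962 genes with 1 member. Leaving out both GST 3 and GST-Ferry 1 gave 1754 and 992 of 15242 genes with 9 members. Without 1 library in turn, calls ranged from 0 to 701 higher and 0 to 558 lower, members called from 0 to 7, and the median from 0.63 to 0.94. Without GST-Ferry 2 edgeR called 0 genes, while 910 on the higher and 794 on the lower side had an unadjusted p under 0.05. The difference in mean log2 share among the members ranged from -0.042 to 0.0952 for GAPDH, from -0.11 to 0.0271 for ENO1 and from -0.0905 to 0.167 for PGAM1. It turned sign without GST 1 in GAPDH, without GST 1 or GST 2 (0.018) in ENO1 and without GST-Ferry 2 in PGAM1. The cause was not tested.

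Libraries of the same replicate number had correlations of deviations of 0.25, 0.08 and -0.13. Those of different numbers ranged from -0.26 to 0.18. With so few libraries these values cannot settle whether the numbers pair them. With the replicate number as a block 167 of 15546 genes were called higher and 28 lower. These included 2 members, LDHA and TPI1 (adjusted p = 0.0464 and 0.0294 by edgeR with Benjamini-Hochberg adjustment). Without ALDOA and LDHB, an alternative chosen after seeing the data, the median was 0.86. DESeq2 gave no adjusted p for ALDOA. Relative to the reported fit, the median of all genes went from -0.03 to -0.18 without a filter. The ALDOA row held 10 to 66 counts, which limits its precision.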

Other observations

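The 5 abundant protein-coding genes whose levels followed the members' mean most closely over the 6 libraries were PRDX2, UCHL1, PEBP1, TIMM50 and ECHS1, with Pearson correlations from 0.995 to 0.999 among 2356 candidates with a mean of at least 100 CPM. They were chosen for this likeness, which includes the difference between the baits, so their fold changes are a description. The peroxiredoxin PRDX2 had 108, 121 and 137 CPM with GST and 241, 390 and 350 with GST-Ferry. UCHL1, a deubiquitinating enzyme, had 213, 210 and 246 CPM with GST and 384, 636 and 550 with GST-Ferry. In both, as in GAPDH, PGAM1, TPI1 and LDHA, GST-Ferry 2 was the highest library and GST-Ferry 1 the lowest of its group. ECHS1, an enzyme of mitochondrial fatty acid oxidation, had 69.3 ± 2.14 CPM with GST and 135 ± 20.8 with GST-Ferry.

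Among the members, GAPDH followed the mean of the others most closely (Pearson 0.98 over 6 libraries), followed by ENO1 (0.97) and TPI1 (0.96). PGAM1, PKM and LDHA each had 0.93, GPI 0.84, PGK1 0.81 and LDHB 0.56. ALDOA, with few counts, had 0.12.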
